A study of Arabidopsis thaliana with 6 samples.

Results

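The introns described here already gave a high number of reads in the wild type Col. They were chosen from the deposited intron counts as the introns of genes with 2 to 14 introns on chromosomes 1, 2, 4 and 5 that held at least 30 counts in the sum of the Col libraries and at least 5 counts per 100 counts of their gene, where the gene itself held at least 100. This rule found 2596 of the 117457 introns in the table, in 2108 genes. The same minima of 30 intron and 100 gene counts were met by 6708 further introns that stayed under 5 counts per 100 gene counts in Col, and these serve as the comparison below. Since the Col counts chose the introns, their Col values are a description, and their change between the genotypes carries that choice.

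The libraries were made from brr2a-2 and Col plants. brr2a-2, labelled cao mutant, carries a missense substitution in the RNA helicase BRR2a, came from an EMS mutant screen and was backcrossed to Col, and it is a single allele whose protein is held to have reduced function. The reference was the wild type of the Col-0 ecotype. All plants were grown side by side in short days for 15 days and harvested 1 h before dark, with 3 biological replicates per genotype. The labels name rosette leaves, whereas the methods of the study name seedlings, and nothing in the labels says that the replicates came from separate growth experiments, so that p-values measure the spread between these libraries.

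Introns are removed from pre-mRNA by the spliceosome, and BRR2 is the helicase that separates paired small nuclear RNAs when the spliceosome becomes active. An intron that is left in a transcript is called retained, and retention is the most frequent kind of alternative splicing in plants. Reads over an annotated intron can also come from a pre-mRNA that has not yet been spliced, from another transcript of the gene that uses the stretch as an exon, or from another gene on either strand, and counts alone do not separate these sources.

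The sequences of 11 introns, read from TAIR10.1, show the range of the set. The first group is shown because it can be read through in the frame of the protein, since its length is a multiple of 3 and no in-frame stop codon occurs in it. It holds intron 2 of AT1G12080 (chr1:4084568-4084669, plus strand), intron 2 of UBQ10 (chr4:2719063-2719290, plus strand) and intron 1 of CRN (chr5:4253783-4253857, minus strand). Capitals mark the first 6 and the last 3 bases of each intron.
AT1G12080 intron 2: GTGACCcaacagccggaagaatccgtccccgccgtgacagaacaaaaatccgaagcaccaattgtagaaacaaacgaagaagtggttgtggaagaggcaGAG
UBQ10 intron 2: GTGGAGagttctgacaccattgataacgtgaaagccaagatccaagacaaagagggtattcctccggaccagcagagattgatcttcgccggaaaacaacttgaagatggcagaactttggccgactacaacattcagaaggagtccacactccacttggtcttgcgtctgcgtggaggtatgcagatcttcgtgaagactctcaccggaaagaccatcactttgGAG
CRN intron 1: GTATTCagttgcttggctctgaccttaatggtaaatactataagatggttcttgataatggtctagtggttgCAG
The second group is shown because it had some of the largest fitted increases in brr2a-2. It holds intron 2 of OHP (chr5:419480-419564, plus strand), intron 2 of NAKR1 (chr5:585847-585943, minus strand), intron 1 of HHP3 (chr2:10267023-10267109, minus strand) and intron 2 of AT4G13615 (chr4:7924768-7924911, plus strand).
OHP intron 2: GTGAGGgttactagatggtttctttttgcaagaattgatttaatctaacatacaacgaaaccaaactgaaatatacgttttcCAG
NAKR1 intron 2: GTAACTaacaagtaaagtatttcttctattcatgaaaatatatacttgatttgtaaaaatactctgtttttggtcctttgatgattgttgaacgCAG
HHP3 intron 1: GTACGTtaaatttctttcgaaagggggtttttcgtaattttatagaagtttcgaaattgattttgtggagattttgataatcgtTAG
AT4G13615 intron 2: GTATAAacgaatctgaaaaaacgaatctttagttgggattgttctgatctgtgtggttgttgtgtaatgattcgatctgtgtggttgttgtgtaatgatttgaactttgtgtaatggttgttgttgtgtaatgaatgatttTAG
The third group is shown because it had large fitted decreases. It holds intron 4 of GLR2.1 (chr5:9535583-9535661, minus strand), intron 2 of AT2G26030 (chr2:11091784-11091864, minus strand) and intron 2 of MPK17 (chr2:201489-201604, minus strand).
GLR2.1 intron 4: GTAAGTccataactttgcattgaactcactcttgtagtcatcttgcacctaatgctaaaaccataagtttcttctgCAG
AT2G26030 intron 2: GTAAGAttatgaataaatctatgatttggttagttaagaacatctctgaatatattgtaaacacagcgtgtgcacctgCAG
MPK17 intron 2: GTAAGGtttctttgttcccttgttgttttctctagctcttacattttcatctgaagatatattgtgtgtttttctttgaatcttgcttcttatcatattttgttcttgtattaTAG
The last one, intron 3 of the kinase gene AFC3 (chr4:15757020-15757111, plus strand), belongs to the splicing regulators described below.
AFC3 intron 3: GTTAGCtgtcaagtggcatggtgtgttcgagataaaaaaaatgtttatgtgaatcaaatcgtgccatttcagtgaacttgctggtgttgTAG
Every one of these sequences starts with GT and ends with AG.

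Gene counts summed to between 18692830 and 23184873 in the brr2a-2 libraries and to between 19468030 and 29830638 in the Col libraries. Over the whole table, 3.96 to 4.50 intron counts were obtained per 100 gene counts in brr2a-2, against 2.76 to 3.57 in Col. The Col library of replicate 1 was the deepest of all and had the highest intron share in Col. The 2596 introns took 16.2% to 17.5% of the intron counts of the brr2a-2 libraries and 18.5% to 21.5% of those of the Col libraries.

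The level of these introns was slightly higher in brr2a-2 than in Col. The median intron had 10.7, 9.80 and 10.7 counts per 100 gene counts in the brr2a-2 libraries and 9.47, 8.20 and 8.51 in the Col libraries. The highest of these Col medians, that of replicate 1, lay just below the lowest brr2a-2 median. In pooled counts the median was 10.3 per 100 in brr2a-2 and 8.81 per 100 in Col, where the middle 50% of introns lay between 6.47 and 14.1. The ratio of intron to gene counts was higher in brr2a-2 for 1637 of the 2596 introns (63.1%), against 5339 of the 6708 introns under 5 per 100 (79.6%). The median log2 ratio of brr2a-2 over Col was 0.14 for the retained introns and 0.46 for the introns under 5 per 100. A log2 ratio above 1 was found for 106 retained introns (4.08%), against 1148 of the introns under 5 per 100 (17.1%).

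**Figure D1:**
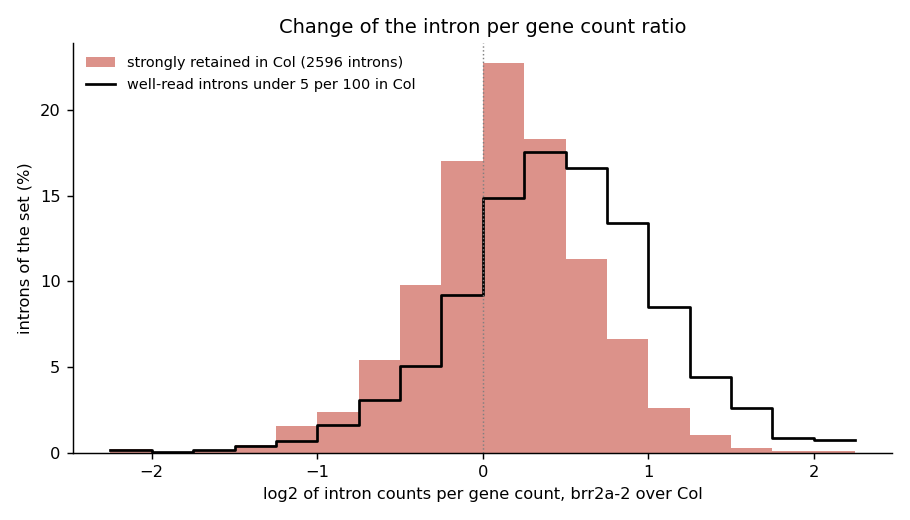
Distribution of the log2 ratio of intron counts per gene count, brr2a-2 over Col, in steps of 0.25, as percent of each set. Red bars are the 2596 introns strongly retained in Col and the black line is the 6708 well-read introns under 5 per 100, and the outermost steps hold all values beyond 2. The retained introns centre at 0.14 and the other introns at 0.46.

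When each library was taken on its own, all 3 brr2a-2 values lay above all 3 Col values for 417 retained introns (16.1%), where the background over all 17214 introns tested was 30.7%. This background also holds introns of chromosome 3, where intron and gene counts did not follow each other over genes. All 3 brr2a-2 values lay below all 3 Col values for 70 retained introns (2.70%), where the background was 1.19%. The libraries of the genotypes overlapped for the remaining 2109 introns. For the introns under 5 per 100, which leave out chromosome 3, the same shares were 30.1% and 1.24%.

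To read the change on counts that did not choose the introns, the rule was applied to the sum of 2 Col libraries at a time and the ratio was taken against the third, with minima lowered to 20 intron and 67 gene counts. The median log2 ratio of the introns chosen in this way was 0.24 against Col replicate 1, 0.37 against Col replicate 2 and 0.31 against Col replicate 3. The well-read introns under 5 per 100 in the same pair of libraries had 0.54, 0.71 and 0.65, so that the distance to the retained introns was between 0.30 and 0.34 each time.

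The change was also related to the Col level, over all introns with at least 10 intron and 34 gene counts in the Col library that set the level, which was then left out of the ratio. With levels set by Col replicate 1, introns under 0.5 counts per 100 gene counts had a median log2 ratio of 0.86, those of 2 to 5 per 100 had 0.54, those of 5 to 10 per 100 had 0.42, those of 10 to 20 per 100 had 0.27, those of 20 to 50 per 100 had 0.12, and the 76 introns of 50 or more per 100 had 0.04. With levels set by Col replicate 2 the median log2 ratio was 0.87 for the lowest and 0.09 for the highest level, and with levels set by Col replicate 3 it was 0.80 and 0.17. On the linear scale the order was the opposite. The median difference of brr2a-2 minus Col was 0.184 counts per 100 gene counts for introns under 0.5 per 100, 1.58 for those of 5 to 10 per 100 and 2.07 for those of 50 or more, again with levels set by Col replicate 1. The relative change was smallest, and the added number of intron reads largest, in the introns with the highest Col level.

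**Figure D2:**
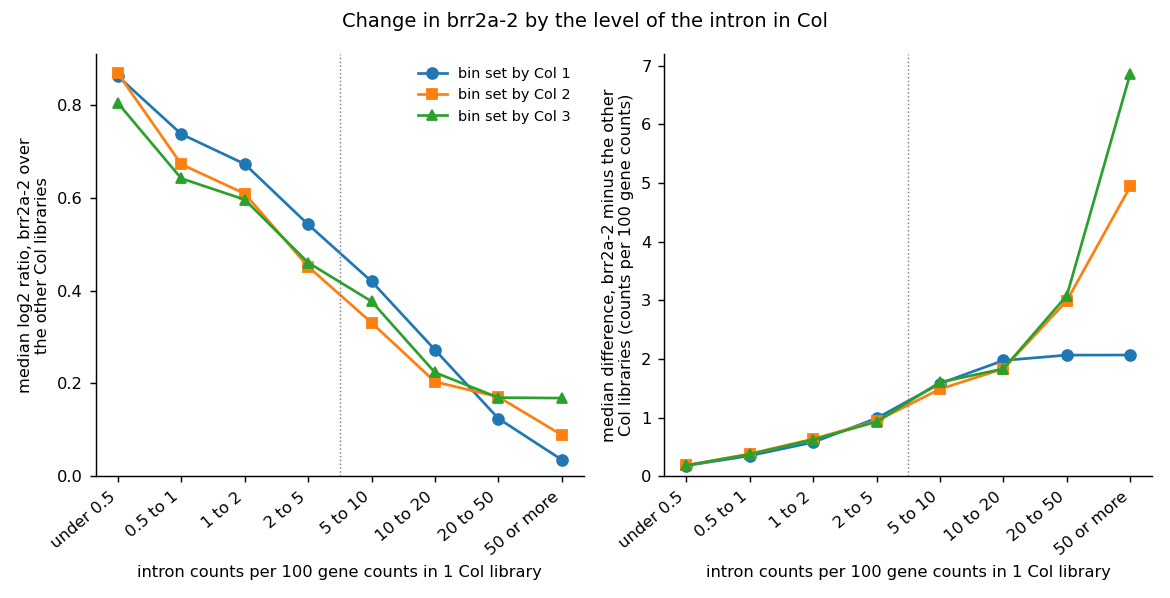
Median change in brr2a-2 of introns grouped by their counts per 100 gene counts in 1 Col library (x axis, in unequal steps), as the log2 ratio over the other Col libraries (left) and as the difference in counts per 100 gene counts (right). Each line uses a different Col library to set the groups, and the dotted line marks 5 per 100. On every line the log2 ratio was lower at higher Col levels and lay between 0.04 and 0.17 in the highest group.

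The remaining introns of the same genes were summed in each library as a comparison within the transcripts. These 9041 introns of 2036 genes gave 7.89, 7.41 and 7.59 counts per 100 gene counts in brr2a-2, against 5.32, 4.92 and 4.48 in Col. All brr2a-2 libraries lay above all Col libraries, with means of 7.63 ± 0.239 in brr2a-2 and 4.91 ± 0.421 in Col (SD, n = 3 each), a log2 ratio of 0.64. The exact two-sided permutation test gave p = 0.10, the smallest value that 3 against 3 libraries allow. The 4871 of these introns under 1 per 100 in Col had 2.81 ± 0.0646 counts per 100 gene counts in brr2a-2 and 1.52 ± 0.164 in Col (SD, n = 3 each), a log2 ratio of 0.89. When a retained intron was set against the other introns of its own gene, which needs no gene counts, its share of the intron reads was lower in brr2a-2 for 1191 of 1601 introns (74.4%), with a median log2 ratio of -0.38. The Col level that chose the retained introns and left out the others enters this ratio too.

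In a fit of all introns that corrects each intron for the change of its gene, none of the retained introns was called. The test was edgeR's quasi-likelihood test with Benjamini-Hochberg adjustment over 17214 introns, those of chromosome 3 included. An intron was called where its adjusted p was below 0.05 and its level changed 2-fold or more in either direction. It called 0 of the 2372 retained introns that passed the filter on low counts, where the background was 0.192% higher and 0.0813% lower. The background of 33 higher and 14 lower introns varied with the libraries used. It was 0 and 0 without brr2a-2 replicate 1, 1 and 0 without brr2a-2 replicate 2, and 30 and 9 without brr2a-2 replicate 3. It was 3 and 6 without Col replicate 2, and 17 and 16 without Col replicate 3. Without Col replicate 1 it was 37 and 44. At an unadjusted p under 0.05, 7 retained introns (0.295%) were higher and 312 (13.2%) lower, where the background was 5.28% higher and 7.41% lower. DESeq2 called none higher and 5 lower, the first introns of ACR5, AT2G18750 and VAB2 (AT4G38510), intron 2 of ATSRL1 and intron 3 of AT4G16680, which is 0.211% of those tested, where the DESeq2 background was 0.459% higher and 0.285% lower. The median fitted log2 fold change was -0.47 for the retained introns and -0.12 for all introns tested. These signs depend on the scaling, because the fit sets the introns of each library to a common level. With the library sizes of the gene counts, the medians were 0.18 and 0.53, and 6 retained introns (0.253%) were called higher, where the background was 3.89% higher and 0.0755% lower. They were those of NAKR1, HHP3, AT4G13615, AT5G44580 and AT2G30695 described below and intron 2 of BRG2, which was named after its values were seen, as were the introns of VAB2 and AT4G16680. The distance between the retained introns and all introns was -0.35 and -0.34 in these fits, so that only the position of a retained intron relative to the others is read below.

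The largest increases among introns whose libraries did not overlap were found in introns of 65 to 184 bp in unrelated genes. Their pooled Col levels lay between 5.04 and 9.23 counts per 100 gene counts, most of them just above the limit of 5. The median of all retained introns was 8.81. Intron 2 of OHP, which encodes a one-helix protein of the thylakoid related to the light-harvesting proteins, had 23.99, 25.1 and 18.4 counts per 100 gene counts in brr2a-2, against 1.70, 6.17 and 7.40 in Col. Every brr2a-2 library was far above the highest Col library, and the lowest Col value, that of replicate 1, rested on 6 intron counts. The fitted log2 fold change was 1.37 ± 0.57 (SE), and edgeR gave an adjusted p of 0.343. Intron 2 of NAKR1, a phloem protein with a heavy metal binding domain, had 24.4, 19.1 and 15.4 counts per 100 gene counts in brr2a-2, against 4.58, 5.65 and 6.40 in Col. The lack of overlap was a condition of the choice, and the values rested on 52, 38 and 29 intron counts in brr2a-2 and 16, 7 and 8 in Col. The fitted log2 fold change was 1.20 ± 0.38 (SE). The adjusted p of this intron in edgeR was 0.227. An exon of another NAKR1 transcript spans this intron, and the same holds for the introns of HHP3 and AT2G30695 below. In intron 2 of AT4G16670, also below, lies an exon of a gene on the other strand.

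Intron 1 of HHP3, which encodes a heptahelical membrane protein, had 20.5, 17.4 and 12.1 counts per 100 gene counts in brr2a-2, against 5.78, 4.28 and 5.47 in Col. Intron 2 of AT4G13615, a gene for a small protein of the SERF family, had 19.9, 17.4 and 13.4 in brr2a-2, against 5.36, 4.05 and 5.72 in Col. In both introns the lowest brr2a-2 library, replicate 3, was still well above the highest Col library. The others among the 8 largest increases were intron 2 of AT4G16670, intron 1 of AT5G44580, intron 2 of FHY1 (AT1G79790), which encodes a haloacid dehalogenase-like hydrolase, and intron 1 of AT2G30695, a gene for a protein like the bacterial trigger factor. Their fitted log2 fold changes lay between 0.92 and 1.06, and edgeR's adjusted p of all 8 lay between 0.227 and 0.505. In the Col libraries the intron of FHY1 held 14, 15 and 6 counts and that of AT4G16670 held 27, 5 and 5. The counts of the genes FHY1 and AT2G30695 had log2 fold changes of -1.23 and -1.10 with adjusted p-values of 0.160 and 0.176 in edgeR. Without the gene correction the fitted log2 fold changes of these introns were -0.21 and -0.16.

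Among the 8 largest decreases, intron 2 of ATSRL1 had the lowest adjusted p. ATSRL1 (AT5G37370) encodes a protein of the PRP38 family, whose yeast member takes part in spliceosome activation, and its intron 2 is 849 bp long, with an exon of another transcript across it. It had 9.66, 7.26 and 7.80 counts per 100 gene counts in brr2a-2, against 13.96, 14.9 and 22.9 in Col. The libraries did not overlap, and the fitted log2 fold change was -1.73 ± 0.40 (SE), with edgeR's adjusted p at 0.114. It was called by DESeq2 with an adjusted p of 0.0176, and by edgeR with 0.0390 when the gene count of each library was the offset, with 0.0496 without a filter and with 0.0322 without Col replicate 1. Over all alternatives its adjusted p ranged between 0.0176 and 0.551. For the gene ATSRL1 itself edgeR gave a log2 fold change of 0.15, with 0.755 as its adjusted p.

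Intron 4 of the glutamate receptor gene GLR2.1 had 4.35, 5.56 and 4.90 counts per 100 gene counts in brr2a-2, against 10.7, 6.96 and 15.9 in Col. These values rested on 4 to 6 intron counts per brr2a-2 library and 8 to 19 per Col library. Intron 2 of MPK17, a MAP kinase gene, had 3.51, 2.99 and 3.68 in brr2a-2, against 8.85, 3.70 and 5.35 in Col, so that the highest brr2a-2 and the lowest Col library nearly met. Intron 1 of ACR5, an ACT domain repeat gene, lies in the 5' UTR and had 4.70, 3.81 and 3.79 in brr2a-2, against 12.9, 6.27 and 7.09 in Col. In the introns of MPK17, ACR5 and intron 1 of AT2G18750, a calmodulin-binding protein gene, the highest of all values was Col replicate 1. Exons of other transcripts span the introns of ACR5 and AT2G18750, and such an exon covers part of the intron of AT2G26030. Introns of AT2G26030, PUB12 and EMB2820 completed the 8, with fitted log2 fold changes of -1.73, -1.74 and -1.79 and adjusted p-values in edgeR between 0.187 and 0.211, and the introns of PUB12 and EMB2820 could not be placed in TAIR10.1. In EMB2820, brr2a-2 replicate 2 stood apart with 5.40 counts per 100 gene counts, against 1.22 and 2.12 in the other brr2a-2 libraries, and without it the fitted log2 fold change was -2.65. These values rested on only 3, 15 and 5 intron counts in brr2a-2 replicates 1, 2 and 3. In the same libraries the intron of PUB12 held 7, 3 and 6 counts and that of AT2G26030 held 7, 7 and 2.

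**Figure D3:**
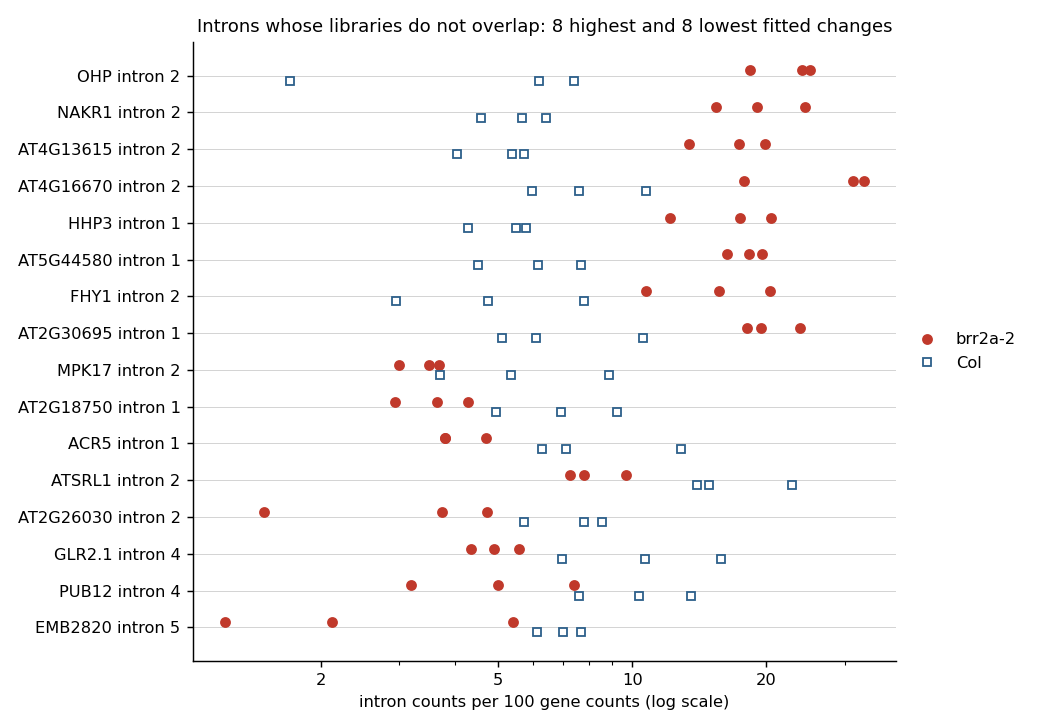
Intron counts per 100 gene counts (log scale) in each library for the 8 highest and 8 lowest fitted changes among retained introns whose libraries do not overlap. Red circles are the 3 brr2a-2 libraries and open blue squares the 3 Col libraries. OHP intron 2 has 18.4 to 25.1 in brr2a-2 and 1.70 to 7.40 in Col, and ATSRL1 intron 2 has 7.26 to 9.66 in brr2a-2 and 13.96 to 22.9 in Col.

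At the top of the Col range the counts of an intron exceeded those of its gene, and another annotated gene often overlapped it there. Among the introns with a position in TAIR10.1, 17 had over 100 counts per 100 gene counts in Col, and 11 of them hold an exon of another gene. The highest of all retained introns was intron 12 of AT5G02370, a kinesin-type motor protein gene, with 3022, 2518 and 2275 counts per 100 gene counts in brr2a-2, against 4135, 1120 and 1348 in Col. Col replicate 1 stood far above the other Col libraries, and this intron could not be placed in TAIR10.1. Introns 5 and 8 of ABCI4, a cytochrome c assembly protein gene of chromosome 2, had means of 844 ± 333 and 574 ± 22.1 in brr2a-2 and 809 ± 89.5 and 560 ± 78.0 in Col (SD, n = 3 each). The genotypes overlapped in both. Both ABCI4 introns occur again, base for base, in an organelle genome and at another nuclear site, so that the source of their reads is uncertain. Of the 2437 retained introns with a position, 15 had an identical copy in an organelle genome, and 21 had an identical copy anywhere.

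Intron 4 of TBL9, a gene of the trichome birefringence-like family, lies across from another gene. It had 1591, 566 and 1319 counts per 100 TBL9 counts in brr2a-2, against 289, 931 and 1083 in Col, a wide spread on 16 to 81 gene counts per library. AT5G06220, a gene on the other strand, spans this intron, and per 100 counts of AT5G06220 the same reads were 18.9, 16.0 and 17.8 in brr2a-2, against 15.8, 16.1 and 19.4 in Col. On that scale the libraries of both genotypes lay close together and overlapped. Intron 6 of AHP2, a gene of meiotic recombination, had 85.9, 89.8 and 120 counts per 100 gene counts in brr2a-2, against 491, 106 and 51.7 in Col. Col replicate 1 was by far the highest, and it was also the highest for AT1G13340, a gene that overlaps most of this intron. AT1G13340 had 15, 23 and 10 gene counts in brr2a-2 and 66, 4 and 5 in Col. Per 100 counts of AT1G13340 the same reads were 487, 461 and 480 in brr2a-2, against 320, 1275 and 300 in Col. On that scale the Col libraries still spread widely. The part of the overlapping gene in these values was not tested. The others of the 10 introns with the highest Col ratio, in AT1G33415, AT4G16400, AT1G04030, AT2G41440 and AT4G38550, had means between 289 and 369 counts per 100 gene counts in brr2a-2 and between 240 and 322 in Col, and all 10 overlapped between the genotypes.

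Introns that can be read through in frame made up a small group. In all, 37 retained introns (1.52%) were open in the frame of the protein, against 3.09% of the other introns of the same genes, and an annotated exon of the same gene spanned 34 of the 37. The genes named next, up to AT5G26610, were chosen after their values were seen. Intron 2 of AT1G12080, a gene for a vacuolar calcium-binding protein-like protein, is 102 bp long and had 72.8, 73.5 and 74.3 counts per 100 gene counts in brr2a-2, against 65.8, 71.3 and 75.2 in Col. The ratio hardly moved although the gene counts ranged from 400 to 1684 in brr2a-2 and from 73 to 1018 in Col. Intron 2 of UBQ10, a polyubiquitin gene, had 46.8, 39.6 and 44.3 counts per 100 gene counts in brr2a-2, against 37.8, 41.9 and 46.2 in Col, and overlapped between the genotypes. Its length of 228 bp equals 76 codons, the length of the ubiquitin unit that this gene repeats, and since the repeats and the paralogue UBQ14 are nearly identical, the assignment of its reads is uncertain. The intron of the same length in UBQ14 had means of 46.6 ± 4.73 in brr2a-2 and 48.2 ± 6.91 in Col (SD, n = 3 each).

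Intron 1 of CRN, which encodes a membrane-bound pseudokinase of the CLAVATA pathway of stem cell control, is 75 bp long and had 44.5, 36.6 and 33.3 counts per 100 gene counts in brr2a-2, against 27.9, 33.1 and 35.5 in Col. Intron 1 of EIP9, a DnaJ domain protein gene, had means of 48.9 ± 11.8 in brr2a-2 and 47.3 ± 6.25 in Col (SD, n = 3 each). Neither differed beyond the spread of its libraries. The last intron of AT2G47020, a peptide chain release factor gene, had 8.06, 7.41 and 35.9 in brr2a-2, against 71.3, 6.32 and 15.4 in Col, so that 1 library of each genotype stood apart. Where an annotated exon spans an intron, its reads can stand in both the intron and the gene counts.

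A few introns without any annotated exon reached levels near or above those of their gene. Intron 6 of AT1G49700 is 67 bp long and had 97.4, 98.0 and 97.5 counts per 100 gene counts in brr2a-2, against 90.3, 99.2 and 96.9 in Col. Intron 12 of APL1, a large subunit of ADP-glucose pyrophosphorylase in starch synthesis, is 86 bp long and had 289, 263 and 177 in brr2a-2, against 150, 245 and 237 in Col. Intron 7 of AT5G26610, a G-patch domain protein gene, had means of 133 ± 17.5 in brr2a-2 and 130 ± 45.7 in Col (SD, n = 3 each). All of these overlapped between the genotypes.

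SR proteins bind exons and help to select splice sites, and their genes in plants are known for long introns that are spliced in several ways. Of 32 listed splicing regulators, 23 lay within the rule's chromosomes and intron numbers, and 14 of these held 18 retained introns. The median log2 ratio of the 18 introns was 0.02, against 0.14 for all retained introns, and the libraries overlapped for 15 of them (83.3%), against 81.2% of all retained introns. None of the 17 that could be tested was called, and the lowest adjusted p in edgeR was 0.331. Intron 3 of SCL33 had 27.2, 23.6 and 24.1 counts per 100 gene counts in brr2a-2, against 27.6, 24.3 and 23.1 in Col, a difference within the spread of the libraries. Intron 2 of RS40 had 10.2 ± 1.81 in brr2a-2 and 9.57 ± 0.506 in Col (SD, n = 3 each), and intron 10 of SR34 had 13.3 ± 1.57 in brr2a-2 and 13.6 ± 2.74 in Col (SD, n = 3 each). These introns are 765, 782 and 818 bp long.

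The 3 introns of this list without overlap (16.7%, against 18.8% of all retained introns) were in SR30, AFC3 and AFC2. Intron 10 of SR30 had 14.4, 14.6 and 16.6 in brr2a-2, against 17.1, 18.4 and 16.8 in Col, and was the only one of the 18 with all brr2a-2 libraries below all Col libraries. Intron 3 of AFC3, a LAMMER-type kinase of the family that phosphorylates SR proteins, had 21.1, 23.2 and 18.3 in brr2a-2, against 13.1, 16.2 and 18.1 in Col, and the lowest brr2a-2 library was barely above the highest Col library. Intron 1 of the related kinase gene AFC2 had 16.1, 14.9 and 15.6 in brr2a-2, against 14.2, 11.8 and 14.2 in Col. The fitted log2 fold changes of the introns of AFC3 and AFC2 were -0.21 ± 0.38 and -0.44 ± 0.34 (SE). Both lay below the median of -0.12 over all introns and above the median of -0.47 over the retained introns. Intron 2 of RS31a, with 21.3, 28.4 and 21.3 in brr2a-2 and 38.7, 26.4 and 27.0 in Col, overlapped through 1 library, and an exon of a gene on the other strand lies within it. The other 11 were further introns of SCL33, RS31a and AFC2 and those of PTB2, a polypyrimidine tract-binding protein, U2AF65b, a subunit of the factor that binds the end of introns, RS41, RSZ33, SC35, SR34b and SR45a, with log2 ratios between -0.19 and 0.66.

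Of 15 flowering genes within the rule's chromosomes and intron numbers, 7 held 13 retained introns. SOC1 is a MADS-box gene that promotes flowering, and its intron 2 of 1002 bp had 13.5, 8.70 and 15.3 counts per 100 gene counts in brr2a-2, against 6.31, 6.34 and 5.22 in Col. All brr2a-2 libraries were above all Col libraries, but edgeR's fitted log2 fold change was 0.31 ± 0.45 (SE) with an adjusted p of 0.809. FLC and the MAF genes encode related MADS-box repressors of flowering. Intron 1 of MAF5, which could not be placed in TAIR10.1, had 27.6, 41.5 and 32.8 in brr2a-2, against 18.0, 19.1 and 14.3 in Col, without overlap. These values rested on 16, 22 and 20 intron counts in brr2a-2 and 20, 9 and 10 in Col. The fitted log2 fold change was 0.35 ± 0.40 (SE), with an adjusted p of 0.754 in edgeR. Intron 1 of MAF3 had 31.3, 36.4 and 29.0 in brr2a-2, against 27.1, 29.0 and 26.9 in Col, where the lowest brr2a-2 and the highest Col library met. The first introns of MAF2 and MAF4, 2081 and 1938 bp long, had means of 21.1 ± 4.07 and 23.3 ± 4.12 in brr2a-2 and 21.0 ± 1.03 and 24.2 ± 4.95 in Col (SD, n = 3 each), and overlapped.

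FLC held 2 retained introns, but its gene counts were 14, 4 and 14 in brr2a-2, against 102, 192 and 289 in Col. Intron 6 had 3, 0 and 5 counts and intron 1 had 1, 2 and 1 counts in brr2a-2, against 8, 10 and 16 counts and 19, 16 and 22 counts in Col. FLC's log2 fold change as a gene was -4.07 with an adjusted p of 0.164 in edgeR. In the sums over libraries, intron 6 had 25 counts per 100 gene counts in brr2a-2, against 5.83 in Col, and intron 1 had 12.5 in brr2a-2, against 9.78 in Col. The libraries of the genotypes overlapped for both, and intron 6 had too few counts for the fit. An annotated gene on the other strand has an exon in both. With so few brr2a-2 counts, these values cannot decide whether the retention of the FLC introns changed. By qPCR, the study reported higher retention of both introns in the mutant. In FPA, an RNA-binding protein of the autonomous flowering pathway, introns 1 and 4 had 7.79 ± 1.67 and 6.32 ± 0.783 in brr2a-2 and 6.46 ± 0.344 and 5.84 ± 0.802 in Col (SD, n = 3 each). The median log2 ratio over the 13 introns was 0.23, and none of the 12 tested was called, with a lowest adjusted p of 0.442 in edgeR. The libraries did not overlap for 2 of the 13 (15.4%), against 18.8% of all retained introns.

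Genes of the clock and of light signalling numbered 24 within the rule's chromosomes and intron numbers, and 7 of them held 8 retained introns. Their median log2 ratio was 0.18, and edgeR called none, with the lowest adjusted p, 0.3204, for intron 1 of PHYC. Intron 1 of PRR3, a pseudo-response regulator of the clock, had 25.1, 16.8 and 17.5 counts per 100 gene counts in brr2a-2, against 9.83, 13.2 and 11.4 in Col. Intron 1 of RVE6, a Myb-like transcription factor of the REVEILLE family, had 15.3, 20.9 and 22.7 in brr2a-2, against 10.6, 13.2 and 13.8 in Col. In both introns every brr2a-2 library was above every Col library. These are 2 of the 8 introns (25%), against 18.8% without overlap among all retained introns. The fitted log2 fold changes were 0.13 ± 0.39 and -0.03 ± 0.35 (SE) with adjusted p-values of 0.915 and 0.983 in edgeR. The gene PRR3 had a log2 fold change of -1.47 with an adjusted p of 0.180 in edgeR. Its intron 1 held 50, 27 and 48 counts in brr2a-2, against 95, 63 and 82 in Col. Intron 3 of HY5, a bZIP factor of light responses, had 15.9 ± 3.77 in brr2a-2 and 10.2 ± 3.10 in Col (SD, n = 3 each), and overlapped. Intron 1 of the photoreceptor gene PHYC had 6.65 ± 0.786 in brr2a-2 and 8.15 ± 1.49 in Col (SD, n = 3 each) and also overlapped. ELF3, RVE2, LNK1 and intron 4 of RVE6 had log2 ratios between 0.04 and 0.18. No intron was chosen among the 38 of 9 photosynthesis genes within the same chromosomes and intron numbers. The rule chose between 3.49% and 3.94% of all such introns on each chromosome, so that 0 of 38 is near this share.

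**Figure D4:**
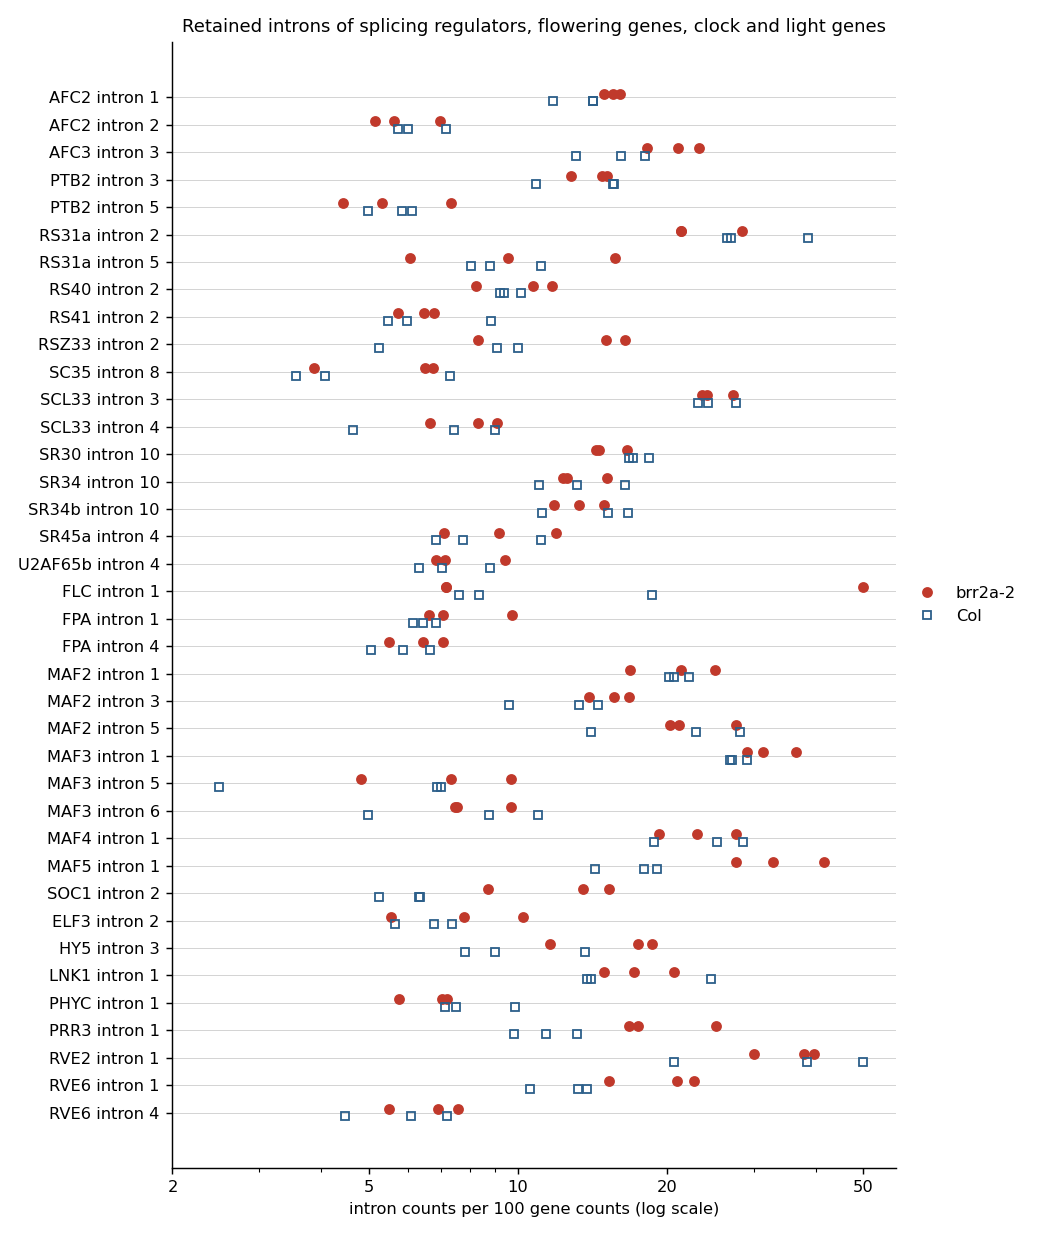
Intron counts per 100 gene counts (log scale) in each library for the retained introns of listed splicing regulators (top), flowering genes (middle) and clock and light genes (bottom). Red circles are the 3 brr2a-2 libraries and open blue squares the 3 Col libraries; intron 6 of FLC, with 0 counts in 1 brr2a-2 library, is not drawn. Most rows overlap, and SOC1 intron 2, with 8.70 to 15.3 in brr2a-2 and 5.22 to 6.34 in Col, is among those that do not.

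The retained introns differed in their annotation from the other introns of the same genes. They had a median length of 343 bp, against 97 bp, but the rule counts reads without regard to length, so that a long intron reaches 5 per 100 at a lower density of reads. Per kb, the median retained intron had 0.482 of the read density of the exons of its gene in brr2a-2 and 0.432 in Col, against 0.183 in brr2a-2 and 0.124 in Col for the other introns. The density exceeded that of the exons for 583 retained introns in Col. An annotated exon of another transcript spanned 23.2% of the retained introns, against 6.04% of the other introns, and 8.08% held an exon of another gene, against 1.73%. No annotated exon at all lay in 51.7% of the retained introns and in 88.9% of the other introns. The first intron of the gene made up 39.9% of them, against 11.96%, and 15.9% lay in the 5' UTR, against 2.99%.

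**Figure D5:**
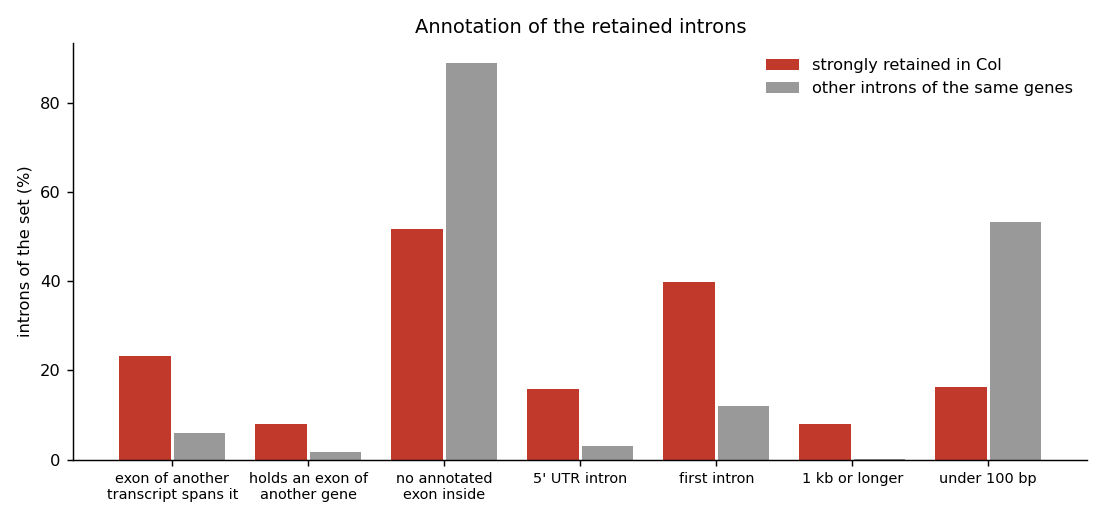
Percent of the 2437 placed introns strongly retained in Col (red) and of the 8481 other introns of the same genes (grey) with each annotation feature; bars start at 0. Exons of other transcripts (23.2% against 6.04%), first introns (39.9% against 11.96%) and 5' UTR introns (15.9% against 2.99%) are more frequent among the retained introns.

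At the 5' splice site, the fifth base of the intron was G in 49.5% of the retained introns and in 50.03% of the others, and the intron started with GTAAGT in 8.66% against 9.69%. The median GC content was 33.5% against 32.9%. The letters GTATCC or ATATCC of the minor spliceosome's 5' splice site, searched on the gene's strand at the start of the intron, were found in 12 retained introns (0.492%), against 0.472% of the other introns and 0.409% of all further introns of genes with at least 100 counts in Col.

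These features went with small differences in the change between the genotypes. The 1259 introns without an annotated exon had a median log2 ratio of 0.19, those spanned by an exon 0.12, those with an exon of another gene 0.12, and those in the 5' UTR 0.09. By read density in Col, which shares its counts with the ratio, the median log2 ratio was 0.34 for the 87 introns under 0.1 of the exon density, 0.20 for those of 0.1 to 0.5, and 0.05 for the 583 above that of the exons. By length, the median log2 ratio was 0.14 for introns under 100 bp and 0.19 for the 193 introns of 1 kb or longer. Introns were not tested as replicates here.

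No gene that holds the introns was called changed in its own counts by edgeR, which called no gene at all. It called 0 of the 2107 host genes that passed the filter, and the background over all 19121 genes tested was 0% in each direction. The study, with DESeq2 and its correction for unwanted variation, called FLC lower and SOC1 higher in brr2a-2. At an unadjusted p under 0.05 in edgeR, 203 host genes (9.63%) were higher in brr2a-2, where the background was 6.93%, and 130 (6.17%) were lower, where the background was 7.47%. One retained intron was found in 1707 of the genes, 401 genes held 2 or more, and 2 genes held 6. These are ABCI4 and AT4G38550, a phospholipase-like gene, where all 6 introns overlapped between the genotypes.

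The limit of 5 per 100 separated introns of nearly equal Col level. At or just above it lay intron 1 of AT4G16680 at 5 counts per 100 gene counts in Col, intron 2 of JAZ6 at 5.002 and intron 2 of AT2G25605 at 5.005, with 5.28, 7.42 and 11.9 in brr2a-2. Just below it lay intron 1 of AT1G29120 at 4.997, intron 9 of STY17 at 4.994 and intron 1 of TLP1 at 4.992, with 9.91, 6.90 and 4.95 in brr2a-2.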

How the data were processed

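RNA sequencing was done on 3 brr2a-2 and 3 Col samples. The authors deposited a table of read counts per gene and a table of read counts per annotated intron, and the values were used as deposited. According to the submitters' processing notes, FastQC, Trimmomatic 0.32, TopHat2, HTSeq and DESeq2 were used with the TAIR10 build. Whether counting used the strand of the reads is not given in the sources used here, so that overlapping genes cannot be told apart. Samples were grouped by their labels, and every count column belonged to a labelled sample.

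The retained introns and the gene lists were chosen with earlier results of these data known. Chromosome 3 was left out by the rule, since intron and gene counts there did not follow each other over genes (Spearman correlation 0.32, across genes, which are not replicates). Its introns stayed in the fits and in the background over all introns tested. Introns were placed in TAIR10.1 by their order along the first transcript model of the gene where it had the same number of introns, which succeeded for 2437 of the 2596 introns (93.9%), and within a gene the counts were checked against intron length. Identical copies were searched in the whole TAIR10.1 assembly. The intron to gene ratio was taken from the sums of the 3 libraries or per library and is given as counts per 100 gene counts. Two-sided exact permutation tests were used for single values, for which 0.1 is the smallest p of 3 against 3 libraries.

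Intron counts were fitted over all introns of the table with edgeR 4.0.16 (quasi-likelihood, TMM scaling, filterByExpr with a minimum count of 10) in R 4.3.3 with limma 3.58.1. In the brr2a-2 libraries each intron was offset by the fitted log2 fold change of its gene, taken with a prior count of 2. Introns were called at an adjusted p of 0.05 and a log2 fold change of 1. Genes were fitted in the same way but without this offset. The intron fit was tested on simulated data. Since the scaling sets the level of the introns, fitted values are read against the median of all introns. Alternatives were DESeq2 1.42.0, gene-table scaling, other offsets and filters, a replicate block and leaving out each library. Leaving out libraries from the ratios and the host gene fit, and leaving out introns with identical copies, were chosen after seeing the data. The correction for unwanted variation used in the study was not applied. Introns were named by rule: the 10 with the highest Col ratio, the 8 highest and 8 lowest fitted changes among those whose libraries do not overlap, the introns of the listed genes and the 3 on each side of the limit. Others are named as chosen after their values were seen. Tables and plots were made with Python 3.11.15, numpy 2.4.6, pandas 2.3.3, scipy 1.17.1 and matplotlib 3.10.9.

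The intron counts, far smaller than the gene counts, limit the precision of most ratios, and 224 of the 2596 introns (8.63%) did not pass the filter on intron counts and were not tested.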

Additional observations from a re-analysis of the deposited data

How the results depend on the processing

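The median fitted log2 fold change of the retained introns turned to 0.18 with the library sizes of the gene table, while its distance to the median of all introns held its sign under every alternative. The number of called introns, 0 of 2372, was 6 with gene-table scaling (all higher; over all introns 670 higher and 13 lower of 17214), 5 with DESeq2 (all lower; 79 and 49), 9 without the gene correction (2 higher, 7 lower; 64 and 19), 1 with the gene count of each library as offset (lower; 31 and 17) and 11 of 2596 without a filter (all lower; 189 and 136 of 100200), and it lay between 0 and 3 when 1 library was left out, with 3 calls without Col replicate 1 and 1 without Col replicate 2. Without the gene correction the introns of FHY1 (AT1G79790) and AT2G30695 had fitted values of -0.21 and -0.16. The cause of these changes was not tested. The median log2 ratio of 0.14 was 0.37 and 0.31 when the introns were chosen without Col replicate 2 or 3 and read against it, and lay between 0.11 and 0.24 with 1 library left out. Leaving out 1 library gave a median fitted change between -0.54 and -0.40, a distance to all introns between -0.40 and -0.33, a log2 ratio of the other introns of the same genes between 0.58 and 0.70, and 0 called host genes each time.

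Deviations of libraries with the same replicate number had correlations over introns of -0.02, 0.26 and 0.11. Those of libraries with different numbers lay between -0.23 and 0.09. The values of replicates 2 and 3 were thus above this range, though low, and that of replicate 1 was within it. With the replicate block the median fitted change was -0.46 and 0 introns were called. Of 201 values of the 16 introns with the largest changes under alternatives, 11 passed the threshold and 2 changed sign, and since none of the 16 was called at first, no call could be lost. Many introns rested on few reads, and 3 libraries per genotype limit the precision of each.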
